A study of Nematostella vectensis with 10 samples.

Results

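The genes described here are 172 genes of the sea anemone *Nematostella vectensis* that were strongly lower after *Nvznf845* knockdown and whose gene numbers stand next to each other. They were chosen by their own measured values. Estimated read counts were summed per gene, divided by a size factor for each library, and compared within the 5 replicate pairs. A gene was taken as a faller when its mean in control libraries was at least 50 normalised counts and its log2 ratio of knockdown to control, with 0.5 added to both counts, was −2 or lower in each of the 5 pairs. Of 24520 genes, 15224 reached the control mean, and 462 of these (3.03%) were fallers. A run is a set of fallers with consecutive numbers. In all, 182 fallers (39.4%) lay in 77 runs. The published cnidocyte genes that the study lists with a gene number (38 genes) were then taken out. Listed genes without such a number could not be matched, and whether any of them is a member is not known. The step removed 10 genes and left 172 members in 76 runs. The size of the fall of a member is therefore a description of how it was chosen, and no test is given for it.

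The libraries were made from whole wild-type gastrulae at 28 hours post fertilization, raised at 24 °C. The tested embryos were injected with a short hairpin RNA (shRNA) against *Nvznf845* (5 libraries, called knockdown libraries here), and the control embryos with a scramble RNA (5 libraries). About 1000 injected embryos were pooled in each library. Knockdown and control libraries of the same replicate number share a batch, and replicates 4 and 5 share one batch. A single shRNA sequence was used, so an effect of the hairpin other than on its target cannot be told apart from the knockdown. Since RNA was taken from whole embryos, fewer cells of a type and less RNA per cell cannot be told apart in any value below.

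Cnidocytes are the stinging cells of cnidarians. Each makes a capsule, the nematocyst or a related organelle, whose wall is built from short collagens and whose content is discharged on contact. They arise from progenitors through a series of transcription factors, among them the zinc finger protein *Nvznf845* and the paired-box protein *NvpaxA*. In many genomes, genes with neighbouring positions include copies of one ancestral gene, which can share sequence and expression. The numbers of the gene models used here (NV2 followed by a number) are identifiers. The files pair them with no position and no sequence, so whether consecutive numbers lie side by side on a chromosome was not checked, and no protein or gene family is given for a member. Names are known here only for genes of the study's list of published cnidocyte genes, and no promoter or protein of a member is shown.

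The targeted gene was lower in every pair. *Nvznf845* had 257, 329, 179, 343 and 292 normalised counts in the knockdown libraries of replicates 1 to 5, against 1357, 1456, 1602, 1581 and 1577 in the control libraries. Values of a gene are given below in the same order of replicates. Library totals ran between 20848941 and 35960095 estimated reads after knockdown and between 18891111 and 49293261 in controls. In the knockdown library of replicate 3 the 10 most abundant genes took 67.4% of the reads, against 56.0% in its control library, and the size factor of that library was the lowest of all at 0.496. One read there is worth 2.02 normalised counts, so low values of that library are coarse. Members fell by a median log2 ratio of −4.62 in pair 3, and by −4.52, −4.75, −5.21 and −4.90 in pairs 1, 2, 4 and 5. Over all genes with a control mean of at least 50 the median stayed between −0.04 and 0.10 in the 5 pairs.

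Genes beside a faller were often fallers themselves. The 462 fallers have 924 neighbouring numbers, 528 of which carry a gene with a control mean of at least 50, and 210 of those (39.8%) were fallers, beside 3.03% of all genes at that level. At a distance of 2 numbers the share was 24.3% (142 of 585), and at 3 numbers it was 15.3% (88 of 575). It was 12.4% at a distance of 4 and 14.8% at 5. At 10 numbers it was 7.50% (40 of 533), still above the share over all genes. These shares describe the fallers from which the runs were cut, and each pair of neighbours enters from both sides.

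**Figure D1:**
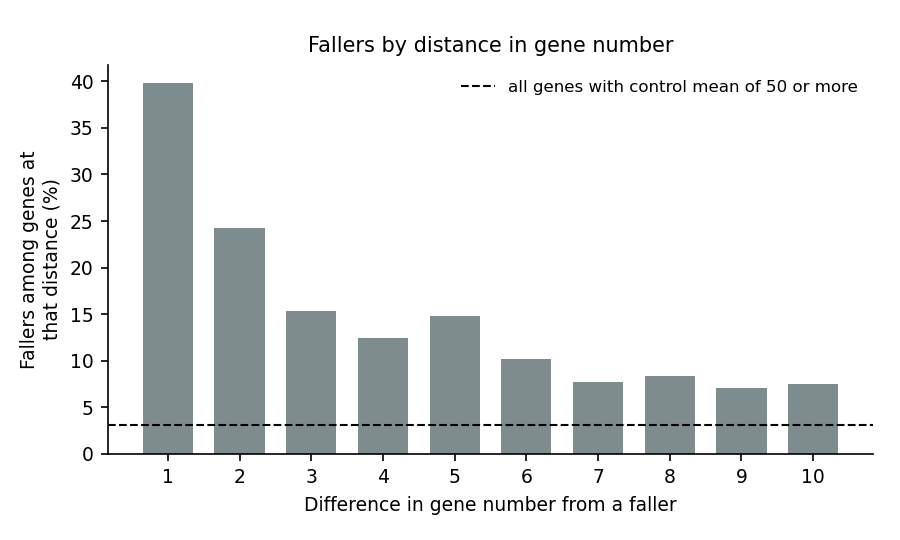
Share of fallers (percent, vertical axis) among genes with a control mean of at least 50 that stand 1 to 10 gene numbers from a faller (horizontal axis); the dashed line marks all such genes (3.03%). The bars run from 39.8% at a distance of 1 to 7.50% at a distance of 10, all above the line.

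Most runs were short. There were 56 runs of 2 genes (105 members), 15 runs of 3 (42 members), 5 runs of 4 (20 members) and 1 run of 5 (5 members). In controls the median level of the members, corrected for transcript length as TPM (a level per transcript length, scaled to the same sum in each library), was 10.5 TPM in runs of 2, 12.7 in runs of 3, 7.23 in runs of 4 and 5.06 in the run of 5. The median of their mean log2 ratios was −4.89 in runs of 2, −5.01 in runs of 3, −5.55 in runs of 4 and −5.34 in the run of 5. The ranges overlapped widely, from −7.79 to −2.31 in runs of 2 and from −7.07 to −2.59 in runs of 4. No order of fall by run length is read from these medians, which rest on 6 runs for lengths of 4 and 5.

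Over all 172 members the median level was 0.401 TPM in knockdown libraries and 10.5 TPM in control libraries. The median mean log2 ratio was −4.99, with quartiles of −5.78 and −4.10 and extremes of −7.79 and −2.08, and the median member kept 3.30% of its control level. For comparison, the 270 fallers with no faller beside them and outside the list of named genes had a median of 0.464 TPM after knockdown and 11.5 TPM in controls, a median log2 ratio of −4.52 and a median remainder of 4.39%. Both sets were cut by the same limits on the fall, so the difference between them was not tested. Members kept 0.470% to 23.5% of their control level. Of the members, 162 had a mean log2 ratio of −3 or lower, 131 of −4 or lower, 85 of −5 or lower, 33 of −6 or lower and 9 of −7 or lower. In 140 members the ratio was −3 or lower in every pair, and in 77 it was −4 or lower in every pair.

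After knockdown 136 of the 172 members were under 1 TPM, and only 3 kept 10 TPM or more. Levels in controls spanned a wide range. Under 1 TPM lay 2 members, between 1 and 10 TPM lay 78, between 10 and 100 TPM lay 83, and 9 had 100 TPM or more. A single member, NV2.11815, made up 27.2% of the summed control TPM of all members, and the 10 highest made up 58.6%. In normalised counts, all members together had 5055, 6375, 5028, 4444 and 5237 in knockdown libraries, against 111439, 140571, 124210, 132742 and 143447 in control libraries. Their share of a library's reads was 0.00694% to 0.0308% after knockdown and 0.268% to 0.717% in controls. In 171 of the 172 members the highest knockdown value was below the lowest control value, which was so for 5.24% of all genes with a control mean of at least 50. The rule used this contrast, so nothing is read from that count.

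**Figure D2:**
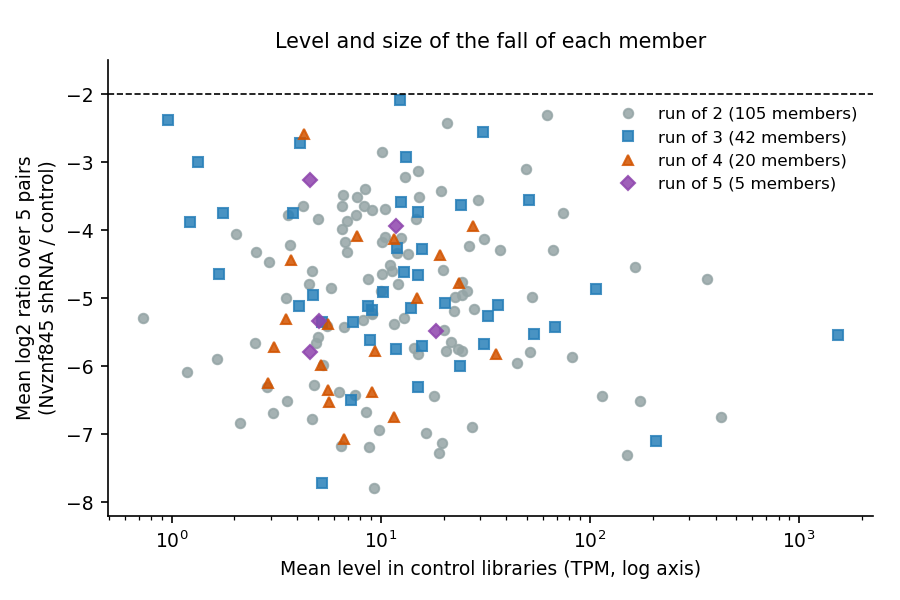
Each of the 172 members by its mean level in the 5 control libraries (horizontal log axis, TPM) and its mean log2 ratio of Nvznf845 shRNA to control over 5 pairs (vertical axis), coloured by run length; the dashed line marks the limit of −2 that each pair had to meet. NV2.11815 stands apart at 1544 TPM, and falls of −6 or lower (33 members) occur at low and high levels.

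The members' transcripts were of ordinary size. The longest transcript of a member had a median of 2518 bp (577 to 9450 bp), against 2446 bp in the isolated fallers and 2670 bp in all genes with a control mean of at least 50. One transcript only was annotated for 128 members (74.4%), against 81.5% of the isolated fallers and 71.1% of all such genes. The most transcripts, 6, were annotated for NV2.8412. The shortest member was NV2.11819 with 577 bp and the longest NV2.21577 with 9450 bp.

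The run of 5 genes was NV2.17399 to NV2.17403. NV2.17399, its member with the highest level, had 21.3, 7.96, 18.1, 15.6 and 15.3 normalised counts in knockdown libraries, against 592, 777, 488, 806 and 839 in control libraries (mean log2 ratio −5.48 ± 0.756, SD over 5 pairs). NV2.17400 had 10.7, 11.5, 6.05, 5.86 and 15.3 after knockdown, against 241, 367, 482, 474 and 474 in controls. NV2.17401 had 1.19, 0, 8.06, 1.95 and 0 after knockdown, against 138, 102, 51.8, 65.3 and 94.5 in controls, so that its fall rests on few knockdown reads. All 3 were lower in each pair by a mean log2 ratio between −5.79 and −5.34. NV2.17402 had 31.98, 21.2, 18.1, 20.5 and 21.9 after knockdown, against 365, 415, 259.9, 326 and 398 in controls, and NV2.17403 had 9.95, 4.76, 6.28, 9.45 and 4.16 after knockdown, against 101, 77.7, 53.2, 53.96 and 59.5 in controls. These last 2 members fell less, with mean log2 ratios of −3.93 and −3.26, and kept 6.45% and 10.02% of the control level. In TPM the controls ran from 4.59 for NV2.17401 to 18.3 for NV2.17399, and no knockdown mean of the run exceeded 0.744 TPM.

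The lowest mean log2 ratios among the runs of 4 were those of NV2.10338 to NV2.10341. NV2.10338 had 4.74, 14.1, 0, 12.7 and 14.6 normalised counts in knockdown libraries, against 247, 379, 976, 1100 and 1092 in control libraries. NV2.10339 had 3.55, 7.96, 2.02, 2.93 and 3.99 after knockdown, against 97.4, 197, 652, 646 and 644 in controls. NV2.10340 was at 0 in 3 knockdown libraries, with 0, 1.77, 0, 0 and 4.65 after knockdown, against 38.8, 72.98, 278, 286 and 277 in controls. The last gene of the run, NV2.10341, had 4.74, 2.65, 2.02, 0.977 and 2.66 after knockdown, against 69.3, 118, 642, 522 and 459.8 in controls. The mean log2 ratios of the 4 genes lay within 0.693 of each other, between −7.07 and −6.38, and the run as a whole kept 0.979% of its summed control counts. All 4 genes also shared a pattern among the controls, with the lowest level in replicate 1, the next in replicate 2 and higher levels in replicates 3 to 5.

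The same control pattern appeared in most of the run NV2.14004 to NV2.14007, which kept more of its level. NV2.14004 had 95.4, 214, 50.5, 128 and 178 normalised counts in knockdown libraries, against 869.5, 1334, 2528, 2629 and 2655 in control libraries (6.65% of control). NV2.14005, a transcript of 8387 bp, had 91.2, 327, 44.3, 47.9 and 236 after knockdown, against 899.5, 1428, 3507, 3594 and 3537 in controls. NV2.14006 had 20.1, 42.4, 12.1, 6.84 and 40.5 after knockdown, against 139, 206, 624, 509.8 and 519 in controls. Controls 1 and 2 were the lowest for these 3 genes, and their knockdown values were also unequal, with replicates 2 and 5 above the others. The last gene of this run differed. NV2.14007 had 0, 0, 0, 0 and 18.7 after knockdown, against 5.27, 128, 62.5, 61.7 and 168 in controls, with a control value below the highest knockdown value, and it was the only member whose groups overlapped. Within its pairs the log2 ratios were −3.53, −8.00, −6.98, −6.96 and −3.13.

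In the run NV2.12537 to NV2.12540 the members differed in their control pattern. NV2.12537 had 3.55, 3.54, 0, 0 and 1.33 normalised counts in knockdown libraries, against 33.2, 88.5, 154, 194 and 209 in control libraries, and NV2.12538 had 9.48, 4.42, 12.1, 3.91 and 6.64 after knockdown, against 103, 228, 341, 475 and 501 in controls. Both were lowest in control 1. NV2.12539 had 7.11, 16.8, 8.06, 9.77 and 23.3 after knockdown, against 439, 751, 569, 796 and 916 in controls, a narrower spread with a mean log2 ratio of −5.78 ± 0.419. NV2.12540, at 906 bp the shortest of the run and at 23.8 TPM its highest in controls, had 4.74, 15.03, 6.05, 11.7 and 7.31 after knockdown, against 372, 298, 121, 218 and 268 in controls, with its highest control value in replicate 1 where its 3 neighbours were lowest.

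Of the runs of 4, NV2.12552 to NV2.12555 held the most unequal members. NV2.12552 had 1.19, 1.77, 0, 2.93 and 1.99 normalised counts in knockdown libraries, against 121, 151, 73.6, 118 and 101 in control libraries. NV2.12553 had 3.55, 7.07, 14.1, 1.95 and 4.65 after knockdown, against 134, 199.5, 280.4, 306 and 308 in controls, and NV2.12554 had 4.74, 5.30, 4.03, 0 and 1.99 after knockdown, against 151, 198, 199, 289 and 359 in controls. These 3 had mean log2 ratios of −5.98, −5.38 and −6.35. NV2.12555 had 28.4, 21.2, 16.1, 14.7 and 13.3 after knockdown, against 154, 135, 67.8, 102 and 118 in controls, a mean log2 ratio of −2.59 ± 0.398, and kept 16.2% of its control level, against 1.34% for its neighbour NV2.12554.

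In the last run of 4, NV2.17000 to NV2.17003, the mean log2 ratios spanned 1.70. The log2 ratios of NV2.17000, NV2.17001 and NV2.17002 varied little over the 5 pairs, with SDs of 0.437 or less. NV2.17000 had 5.92, 4.42, 4.03, 5.86 and 5.31 normalised counts in knockdown libraries, against 87.7, 143, 109, 129.8 and 139 in control libraries. NV2.17001 had 7.11, 10.6, 8.06, 9.77 and 7.97 after knockdown, against 136, 208, 135, 159.9 and 166 in controls, with an SD of its log2 ratio of only 0.147 around a mean of −4.13. NV2.17002 had 11.9, 39.8, 26.2, 23.5 and 34.5 after knockdown, against 623, 1026, 678, 903 and 954 in controls. NV2.17003 had 39.2, 29.2, 66.7, 12.7 and 23.9 after knockdown, against 1915, 2342, 1205, 1546 and 1784 in controls, the largest fall of the run at −5.82 ± 1.03. In controls the level was higher at each higher number of this run, with 3.72, 11.6, 14.9 and 35.6 TPM.

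**Figure D3:**
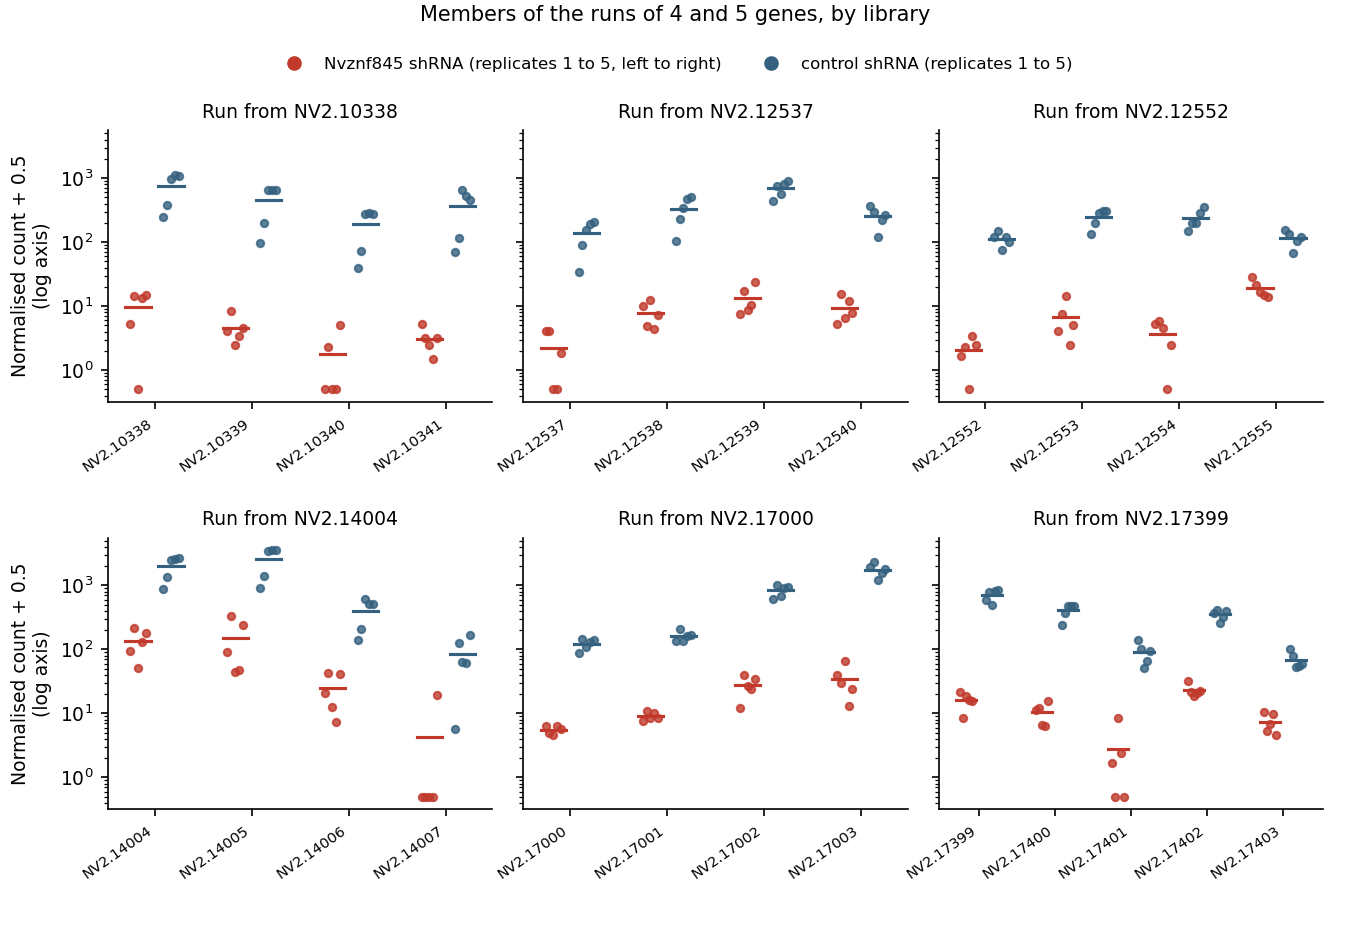
Normalised counts plus 0.5 (vertical log axis) of the 25 members of the runs of 4 and 5 genes in each library, with Nvznf845 shRNA libraries in red to the left of control libraries in blue, replicates 1 to 5 from left to right and lines at the group means. The groups are apart in every gene except NV2.14007, where knockdown replicate 5 (18.7) lies above control replicate 1 (5.27).

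Among the runs of 3, the genes NV2.11814 to NV2.11825 formed the most abundant stretch, with 3 runs of 3 separated by 1 or 2 numbers. NV2.11815, a short transcript of 753 bp, had the highest level of all members, with 242, 368, 266, 277 and 251 normalised counts in knockdown libraries, against 10960, 13220, 14810, 12330 and 13620 in control libraries, that is 33.7 TPM after knockdown and 1544 ± 394 TPM in controls (SD, n = 5). Its mean log2 ratio was −5.54 ± 0.255, and it still kept 33.7 TPM, the highest level of any member after knockdown. NV2.11814 had 182, 319, 165, 238 and 289.9 after knockdown, against 4431, 5826, 9382, 7318 and 8102 in controls. NV2.11816, a transcript of 689 bp, had 11.9, 4.42, 22.2, 7.82 and 13.95 after knockdown, against 1757, 1858, 1538, 1200 and 1356 in controls, a mean log2 ratio of −7.11. The mean log2 ratios of the 3 neighbours spanned 2.23.

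The next run of that stretch, NV2.11819 to NV2.11821, has at its centre the named gene *Ncol* (NV2.11820), a minicollagen gene by its name. Minicollagens are the short collagens of the capsule wall. *Ncol* itself is not a member. NV2.11819 had 7.11, 2.65, 6.05, 5.86 and 4.65 normalised counts in knockdown libraries, against 229, 293, 161, 147 and 152 in control libraries, and NV2.11821 had 15.4, 32.7, 34.3, 13.7 and 23.3 after knockdown, against 853, 1109, 1015, 948 and 979 in controls. Their mean log2 ratios were −5.10 ± 0.821 and −5.42 ± 0.489. The third run, NV2.11823 to NV2.11825, had an even size of fall. NV2.11823 had 18.95, 15.9, 20.2, 5.86 and 14.6 after knockdown, against 408, 591, 497, 456 and 498 in controls. NV2.11824 had 15.4, 19.5, 20.2, 9.77 and 13.3 after knockdown, against 899, 1136, 782, 1034 and 1164 in controls, and NV2.11825 had 26.1, 50.4, 60.5, 18.6 and 33.2 after knockdown, against 1490, 1907, 1667, 1454 and 1596 in controls. Their mean log2 ratios were −5.07, −5.99 and −5.53, and all 3 kept between 1.56% and 3.08% of the control level.

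Of the remaining runs of 3, NV2.8633 to NV2.8635 had large and even falls. NV2.8633 had 20.1, 17.4, 8.06, 13.7 and 16.6 normalised counts in knockdown libraries, against 685, 975, 563, 823 and 873 in control libraries, and NV2.8635 had 13.03, 7.96, 12.1, 5.86 and 6.64 after knockdown, against 651, 809, 559, 821 and 824 in controls. The gene between them, NV2.8634, had 2.37, 2.65, 8.06, 4.89 and 1.33 after knockdown, against 126, 211, 156, 221 and 236 in controls. The 3 mean log2 ratios lay between −6.30 and −5.62. In the run NV2.6437 to NV2.6439 the fall differed more, although all 3 genes were low after knockdown. NV2.6438 was at 0 in 3 knockdown libraries and had 2.37, 3.54, 0, 0 and 0 after knockdown, against 295, 294, 155, 186 and 236 in controls, a mean log2 ratio of −7.72 ± 1.20. NV2.6439 had 2.37, 13.3, 10.1, 3.91 and 7.97 after knockdown, against 424, 605, 769.7, 687 and 693 in controls. NV2.6437, with a control level of only 1.69 TPM, had 0, 0.884, 4.03, 7.82 and 5.31 after knockdown, against 73.7, 46.8, 59.02, 75.6 and 91.2 in controls and a mean log2 ratio of −4.64 ± 1.60.

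The run NV2.5187 to NV2.5189 comprised 1 long and 2 shorter transcripts. NV2.5188, of 5179 bp, had 16.6, 15.9, 62.5, 11.7 and 41.2 normalised counts in knockdown libraries, against 1083, 1535, 1146, 1278 and 1376 in control libraries, with its highest knockdown value in replicate 3. NV2.5187 had 2.37, 0.884, 2.02, 2.93 and 1.33 after knockdown, against 112, 104, 39.5, 74.8 and 89.1 in controls, and NV2.5189 had 8.04, 8.81, 2.02, 4.80 and 7.31 after knockdown, against 234, 236, 108, 153 and 222 in controls. Their mean log2 ratios were −5.12, −5.70 and −4.91 in the order of the numbers. In the run NV2.14624 to NV2.14626 all 3 genes were lowest in controls 1 and 2, as in the run from NV2.10338. NV2.14624 had 7.11, 13.3, 0, 1.95 and 5.34 after knockdown, against 84.4, 161, 245, 336 and 301 in controls. NV2.14625 had 11.9, 18.6, 2.02, 2.93 and 7.97 after knockdown, against 109, 194, 327, 360.1 and 383 in controls, and NV2.14626 had 14.2, 49.5, 12.1, 29.3 and 29.9 after knockdown, against 337, 470.3, 762, 801 and 901 in controls. The fall within a pair was smallest in pair 1 for NV2.14624 and NV2.14625, where the control was lowest.

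Other runs of 3 joined a member with a large fall to members with smaller ones. In NV2.10004 to NV2.10006, NV2.10004 had 17.8, 15.03, 14.1, 12.7 and 11.96 normalised counts in knockdown libraries, against 673, 749.7, 357, 529 and 593 in control libraries (mean log2 ratio −5.26), while NV2.10005 had 39.1, 48.6, 38.3, 39.5 and 31.2 after knockdown, against 425, 366, 185, 270.1 and 303 in controls (mean log2 ratio −2.92) and NV2.10006 had 72.3, 48.8, 64.5, 54.7 and 40.5 after knockdown, against 885, 911, 371, 588 and 687 in controls (mean log2 ratio −3.56). In all 3 the lowest control was that of replicate 3. In NV2.16360 to NV2.16362, NV2.16360 kept 7.64% of its control level, against 2.84% for NV2.16361 and 2.68% for NV2.16362. The mean log2 ratios of NV2.16361 and NV2.16362 differed by 0.00255, the closest of any adjacent members, at −5.35 ± 1.47 and −5.35 ± 0.929, although the SD over pairs is far larger than that difference.

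The runs NV2.12782 to NV2.12784, NV2.18174 to NV2.18176 and NV2.20519 to NV2.20521 had moderate falls for this set. Mean log2 ratios were −4.27, −4.95 and −3.59 in the first, −4.26, −4.62 and −5.11 in the second and −3.75, −5.17 and −3.74 in the third. The highest level among these 9 members was that of NV2.12782, with 0.769 TPM after knockdown and 15.8 ± 5.95 TPM in controls (SD, n = 5) and 42.6, 49.5, 42.3, 29.3 and 34.5 normalised counts in knockdown libraries, against 708, 923, 574, 787 and 876 in control libraries. NV2.20520 had 3.55, 12.4, 4.03, 9.77 and 20.6 after knockdown, against 289, 374, 261, 359 and 299.9 in controls, a larger fall than the genes on both sides of it, which kept 6.78% and 7.51%. NV2.12783 was at 0 in the knockdown library of replicate 3, and its other knockdown values were between 2.93 and 5.31 normalised counts.

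The smallest falls in a run of 3 with members only were those of NV2.5136 to NV2.5138. NV2.5137 had 109, 113, 80.6, 87.9 and 93.7 normalised counts in knockdown libraries, against 459, 489.8, 329.9, 373 and 411 in control libraries, a mean log2 ratio of −2.08 ± 0.0393 and the smallest SD over pairs of any member. It kept 23.5% of its control level, the most of all members. NV2.5138 had 118, 151, 107, 106 and 90.3 after knockdown, against 643, 819.7, 632, 614 and 625 in controls, and NV2.5136 had 52.1, 66.3, 42.3, 45.9 and 35.9 after knockdown, against 629, 769, 425, 553 and 646 in controls. The mean log2 ratios of these 2 genes were −2.55 and −3.63, and in all 3 genes the groups did not overlap.

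There were 8 runs in which a named cnidocyte gene stood beside members, with 11 members in all. These named genes were removed from the set by their list, which the study compiled with marks set on these libraries, so the count describes the runs and is not independent evidence of what the members are. NV2.5199, beside *Ngal* (NV2.5200), a gene named after nematogalectin, a nematocyst protein known from *Hydra*, had 149, 70.3, 0, 20.04 and 37.4 normalised counts in knockdown libraries, against 4303, 5037, 2151, 2938 and 2947 in control libraries. Its log2 ratios were −4.85, −6.15, −12.10, −7.16 and −6.28 in pairs 1 to 5, the widest spread of any member (SD 2.79), set by the 0 of the knockdown library of replicate 3. In controls it was at 150.3 TPM. In that knockdown library *Ngal* had 294 normalised counts. Reads that match several similar transcripts were divided between them by estimation, and whether the 2 genes share reads was not tested.

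NV2.11802, beside the minicollagen gene *ncol4* (NV2.11801), had 367, 399.9, 365, 388 and 377 normalised counts in knockdown libraries, against 1867, 2189, 2082, 1597 and 1751 in control libraries. Its mean log2 ratio of −2.31 ± 0.190 was the second nearest to 0 of all members, and it kept 19.99% of its control level, against 1.26% for *ncol4*. NV2.1924, beside *ggt* (NV2.1925), whose name is that of gamma-glutamyl transferases, had 1.19, 2.65, 8.06, 8.79 and 2.66 after knockdown, against 276, 359.7, 152, 191 and 223 in controls and a mean log2 ratio of −5.77 ± 1.45. NV2.12896, beside *cnido-jun* (NV2.12897), a gene of the Jun family of transcription factors, had 15.4, 31.8, 20.2, 4.89 and 11.96 after knockdown, against 519.5, 781, 968, 840.2 and 932 in controls. Here the member reached 14.5 TPM in controls. NV2.20492, beside *NEP3-like* (NV2.20491), had 8.29, 13, 14.1, 16.6 and 13.95 after knockdown, against 131, 172, 102, 147 and 162 in controls. It kept 9.25% of its control level, against 2.81% for *NEP3-like*.

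The genes NV2.21576 and NV2.21577 preceded *ANTR2-like* (NV2.21578) and fell less than it. NV2.21576 had 13.03, 18.6, 10.1, 16.6 and 13.95 normalised counts in knockdown libraries, against 55.6, 78.8, 87.5, 75.6 and 87.1 in control libraries, a mean log2 ratio of −2.38 ± 0.438, at a control level of 0.964 TPM. NV2.21577, the longest member, had 9.48, 8.84, 12.1, 9.77 and 17.3 after knockdown, against 85.6, 138, 275, 236 and 191 in controls and a mean log2 ratio of −3.88 ± 0.619, against −5.94 ± 0.569 for *ANTR2-like*. On both sides of *coup-like1* (NV2.23247), whose name is that of the COUP nuclear receptors, lay NV2.23246 and NV2.23248. NV2.23246 had 8.29, 7.96, 6.05, 3.91 and 9.96 after knockdown, against 88.8, 69.6, 33.9, 59.3 and 55.3 in controls, and NV2.23248 had 20.1, 19.5, 28.2, 26.4 and 28.6 after knockdown, against 182, 178, 159, 139 and 156 in controls. The 3 genes of that run had almost the same mean log2 ratio, −2.99, −2.96 and −2.72 in the order of the numbers. One further run, NV2.24307 and NV2.24308, consisted of the named genes *NVE15732* and *NVE15733* only and gave no member.

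Among the runs of 2, the lowest mean log2 ratio was that of NV2.12534 and NV2.12535. NV2.12534 had 8.29, 10.6, 2.02, 2.93 and 1.33 normalised counts in knockdown libraries, against 613, 858, 542, 649 and 729.6 in control libraries. NV2.12535 was at 0 in 3 knockdown libraries and had 0, 3.54, 0, 0 and 2.66 after knockdown, against 361, 337, 132, 213 and 248 in controls, a mean log2 ratio of −7.79 ± 1.42, the lowest of all members on this scale. The order of the lowest members depends on the measure, since NV2.17397 kept 0.471% of its control level and NV2.12535 0.480%. Together the 2 genes kept 0.670% of their summed control counts. NV2.11074 and NV2.11075 followed with mean log2 ratios of −6.99 ± 1.87 and −6.31 ± 0.903. NV2.11074 had 4.74, 1.77, 14.1, 0 and 3.99 after knockdown, against 557, 617, 306, 328 and 369 in controls, and NV2.11075 had 2.37, 0.884, 0, 0 and 0.664 after knockdown, against 99.5, 128, 62.1, 76.5 and 57.4 in controls. In both pairs of genes several knockdown values stand for 0 to 3 reads, so their order by size of fall is not settled.

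NV2.15738 and NV2.15739 were similar. NV2.15738 had 3 reads over the 5 knockdown libraries and 854 over the control libraries. With reads pooled and scaled by size factors, this is 0.388% of its level in controls (0.485% from mean normalised counts). For the pooled reads, counting error alone allows 0.0798% to 1.14% (95%, exact). NV2.15739 had 8.29, 5.30, 8.06, 11.7 and 3.32 normalised counts in knockdown libraries, against 514, 507, 250.4, 346 and 409 in control libraries, a mean log2 ratio of −5.75. NV2.9737 and NV2.9738 had large falls at a higher level. NV2.9737 had 45.1, 66.3, 54.4, 41.03 and 47.8 after knockdown, against 2624, 3273, 2317, 2814 and 3128 in controls (51.7 TPM in controls), and NV2.9738 had 8.29, 2.65, 4.03, 4.89 and 3.32 after knockdown, against 614, 718, 405, 559 and 614 in controls. Their mean log2 ratios of −5.79 ± 0.284 and −6.89 ± 0.683 rest on more reads than those of NV2.15738.

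The most abundant runs of 2 included NV2.11720 and NV2.11721, both short transcripts of 1083 and 862 bp. NV2.11720 had 205, 271, 236, 127 and 160.2 normalised counts in knockdown libraries, against 4711, 5735, 6065, 4459 and 4786 in control libraries. NV2.11721 had 42.6, 26.5, 80.6, 24.5 and 46.5 after knockdown, against 4229, 4926, 4759, 3838 and 4135 in controls. In controls the 2 genes were close at 362 and 424 TPM, but they kept 3.88% and 1.01% of it, mean log2 ratios of −4.73 ± 0.293 and −6.74 ± 0.654. In NV2.9989 and NV2.9990 the controls were again close, at 53.2 and 82.6 TPM. NV2.9989 had 92.4, 55.7, 107, 79.1 and 104 after knockdown, against 2095, 2880, 2266, 3198 and 3405 in controls, and NV2.9990 had 139.8, 67.2, 123, 84.02 and 83.03 after knockdown, against 4268, 6134, 4743, 6432 and 6885 in controls. NV2.10343, at 114 TPM in controls, had 54.5, 47.7, 60.5, 31.3 and 51.2 after knockdown, against 3696, 5487, 2350, 5134 and 5155 in controls, and the gene beside it, NV2.10344, had 2.37, 2.65, 4.03, 3.91 and 3.99 after knockdown, against 151, 222, 96.96, 188 and 176 in controls at 5.52 TPM, so that adjacent members differed 20.6-fold in control level.

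The smallest mean falls among the runs of 2 with 2 members were those of NV2.9862 with NV2.9863, of NV2.6106 with NV2.6107 and of NV2.14235 with NV2.14236. NV2.9862 had 72.3, 74.3, 70.5, 74.3 and 51.8 normalised counts in knockdown libraries, against 709, 725, 435, 550.1 and 619 in control libraries, and NV2.9863 had 74.6, 81.4, 82.6, 60.6 and 46.5 after knockdown, against 721, 958, 562, 694 and 789.9 in controls. Their mean log2 ratios were −3.13 ± 0.375 and −3.43 ± 0.477. NV2.6106 and NV2.6107 kept 8.84% and 7.89%. NV2.14236 had 242, 295, 163, 189.5 and 194 after knockdown, against 1846, 2306, 1490, 1756 and 1853 in controls, a mean log2 ratio of −3.11 ± 0.150, and NV2.14235 had 5.92, 8.84, 2.02, 2.93 and 4.65 after knockdown, against 105, 123, 63.99, 79.1 and 87.4 in controls, so that the member with the higher level kept the larger share of it (11.7% against 5.31%).

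The most unequal pair of adjacent members was NV2.17806 and NV2.17807. NV2.17806 had 2.45, 0.910, 0, 2.02 and 2.06 normalised counts in knockdown libraries, against 199.8, 218, 80.6, 137 and 176 in control libraries. NV2.17807 had 119.6, 117, 70.5, 115 and 106 after knockdown, against 692, 680.1, 385, 531 and 579 in controls. Both were lower in every pair, but by mean log2 ratios of −6.51 ± 0.737 and −2.43 ± 0.137, a difference of 4.08. In NV2.24893 and NV2.24894 the difference was 2.88. NV2.24893 had 60.4, 83.1, 72.6, 50.8 and 37.9 after knockdown, against 783, 923, 433, 669 and 785 in controls, and NV2.24894 had 13.03, 3.54, 6.05, 1.95 and 35.9 after knockdown, against 228, 589, 882, 1043 and 1273 in controls. The 2 genes also differed among the controls, since replicate 3 was the lowest for NV2.24893 and replicate 1 for NV2.24894.

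The 79 members outside the rule for named genes, of which 5 were given with their values above, all lay in runs of 2. Their mean log2 ratios ran from −7.19 to −2.85 (median −4.79), and their control levels from 1.64 to 174.6 TPM (median 10.1). They kept 0.759% to 13.2% of the control level. After knockdown their levels were between 0.0151 and 6.48 TPM, and 10 of them were at 0 in at least 1 knockdown library. They thus covered most of the range of the members already described, without its extremes.

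Members of one run were closer to each other in their fall than members of different runs, though the ranges overlapped. Over the 94 pairs of adjacent members the median difference in mean log2 ratio was 0.786 (highest 4.08), and 56 pairs (59.6%) differed by less than 1. Over the 14577 pairs of members from different runs the median difference was 1.22, and 41.6% differed by less than 1. Of the 71 runs with at least 2 members, 33 spanned less than 1 on the log2 scale and 13 spanned 2 or more. The SD of a member's ratio over the 5 pairs, which is the spread of single pairs and not of their mean, had a median of 0.689. Both figures come from the contrast that chose the members and are given as a description.

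**Figure D4:**
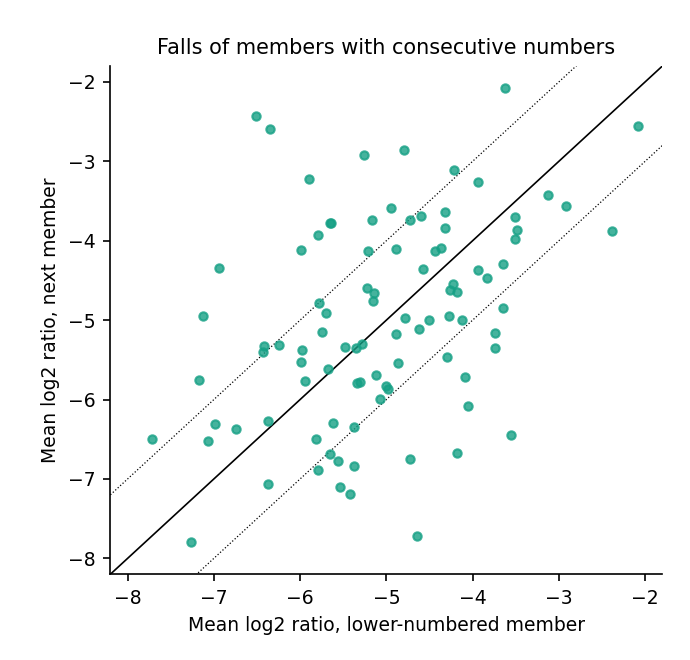
Mean log2 ratio of Nvznf845 shRNA to control of the lower-numbered member (horizontal axis) and of the member with the next number (vertical axis) for the 94 adjacent pairs; the solid line marks equal falls and the dotted lines a difference of 1. Of the pairs, 56 lie between the dotted lines, and the points far above or below them include NV2.17806 with NV2.17807, which differ by 4.08.

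Levels were closer within runs too. The control TPM of adjacent members differed by a median of 0.896 on the log2 scale, against 1.44 for members of different runs and 1.63 for all adjacent numbers with a control mean of at least 50 that were not both fallers. Transcript lengths gave little likeness. In 12 of the 94 adjacent pairs (12.8%) the lengths lay within 10% of each other, against 9.63% of the pairs from different runs and 10.2% of the other adjacent numbers. Whether adjacent members are copies of one gene could not be read from length, and no sequence was compared.

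The control libraries alone give a view of the runs that the size of the fall does not enter, although membership does. Each member's control values were put on the log2 scale and centred on their mean. Adjacent members differed in this profile by a median of 0.201 (root mean square over the 5 controls), members of different runs by 0.378 and all other adjacent numbers by 0.310. The profiles of NV2.9989 and NV2.9990 were the most alike, with a difference of 0.0318. The least alike were NV2.14006 with NV2.14007 (1.36) and NV2.24893 with NV2.24894 (1.05). As 5 libraries in 4 batches set these profiles, they follow any difference between batches as well.

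In 66 members the lowest control was replicate 1, and in 89 it was replicate 3. Replicates 2, 4 and 5 were the lowest in 1, 14 and 2 members. Over all genes with a control mean of at least 50, replicate 3 was the lowest in 42.4% and replicate 1 in 30.4%. Controls 1 and 2 were both lower than the other 3 in 37 members (21.5%), in 15.9% of the isolated fallers and in 28.5% of all such genes, so the members' share lay between the other 2. The pattern was shared within some runs and split within others, and it was not counted for other adjacent numbers. In 8 of the 71 runs with at least 2 members every member had it, namely the runs starting with NV2.737, NV2.9510, NV2.10338, NV2.13058, NV2.14624, NV2.22154, NV2.24348 and NV2.25337. Of the 94 adjacent pairs, 15 had it in both genes and 15 in only 1. NV2.10343 and NV2.10344, which follow the run from NV2.10338 after 1 number, did not share it, since their lowest control was replicate 3.

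**Figure D5:**
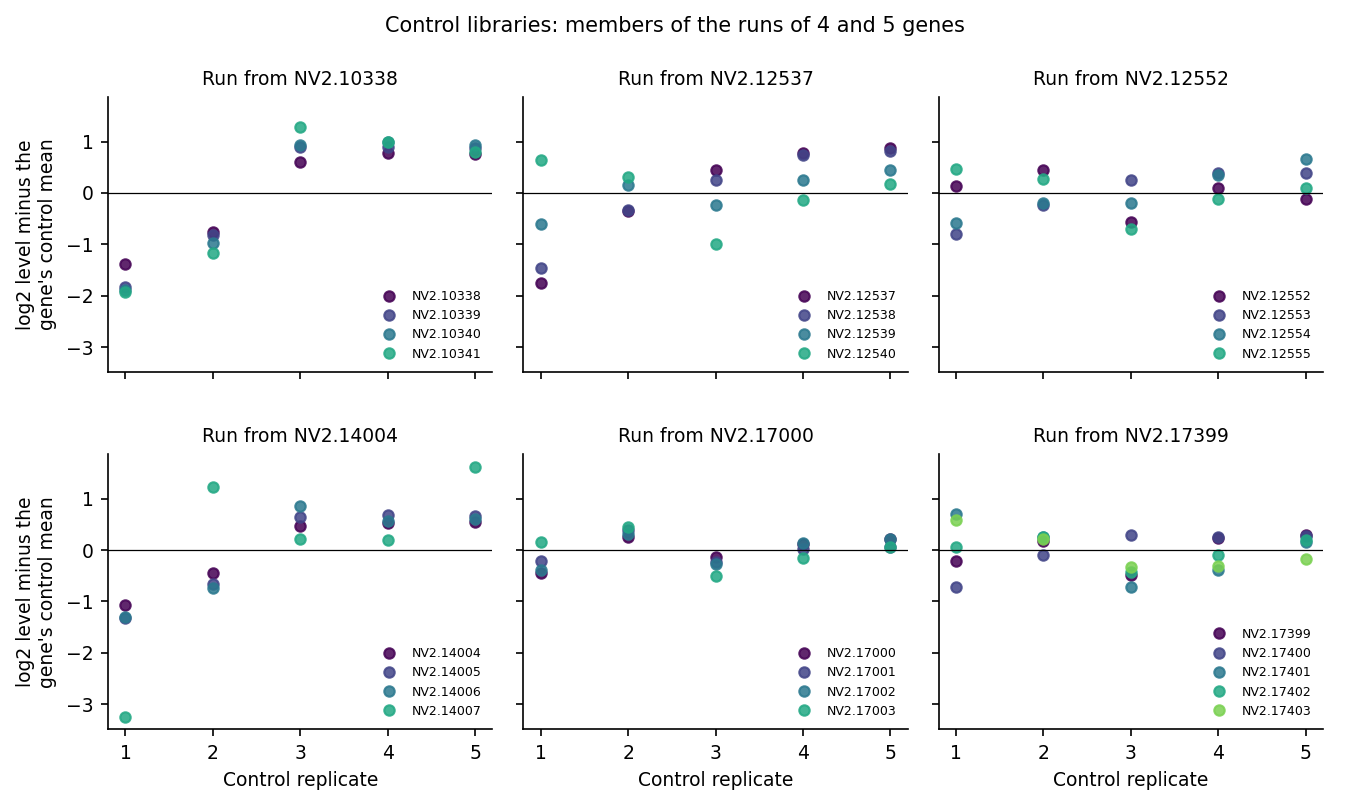
Level in each control library (log2 scale, minus the gene's mean over the 5 controls) for the 25 members of the runs of 4 and 5 genes, with one colour for each gene and control replicates 1 to 5 on the horizontal axis. The 4 genes from NV2.10338 on lie together, low in replicates 1 and 2, while NV2.14007 departs from its 3 neighbours.

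Genes of enough reads beside a run mostly had ratios near 0, which the rule sets in part. A gene 1 number beyond a run cannot be a faller, since it would then have been counted in the run. Of the 138 genes at that place, 59 had a control mean of at least 50, and 55 of these had a mean log2 ratio between −0.5 and 0.5 (median −0.03). The median over all genes with a control mean of at least 50 was 0.0097, and their share between these bounds was not counted. The other 79 were below the control mean, 12 of them under 1 normalised count, and 15 of the 79 had a ratio of −2 or lower in every pair. At 2 numbers beyond a run 128 genes were found, 83 with a control mean of at least 50, of which 13 were fallers and 65 had a mean log2 ratio between −0.5 and 0.5. In the fit across all 19001 genes with enough reads, edgeR's quasi-likelihood test called 11 of the 83 tested genes 1 number beyond a run lower (13.3%) and 18 of the 108 tested genes at 2 numbers (16.7%). A call needed an adjusted p no higher than 0.05 and a fall of about 1.5-fold or more. Over all genes tested 4.23% were called lower. The 29 calls were 46 without a filter on low counts and 49 by DESeq2. Only NV2.17825 was called higher (log2 fold change 0.91, standard error 0.226), where 1.21% of all genes were. The place of a gene beside a run is set by the same contrast, so these shares are descriptions.

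A member that the same fit did not call was NV2.14007, with a log2 fold change of −4.11, while 171 of the 172 members were called lower and none higher. In this fit the median log2 fold change of the members was −4.84, with a median standard error of 0.315. The rule chose the members on these libraries, so their calls add nothing to their choice.

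Several runs were parts of longer stretches of low genes, broken by a gene with few reads. NV2.6105, between the runs NV2.6103 to NV2.6104 and NV2.6106 to NV2.6107, had a mean of 0.310 normalised counts after knockdown and 24.8 in controls, below the limit. NV2.12536, between NV2.12535 and NV2.12537, had no reads in any knockdown library and 15.8 normalised counts on average in controls. NV2.17398, beside the run of 5, had 0.266 after knockdown and 24.5 in controls. Without the limit on the control mean these gaps would have joined the runs on both sides. Some other genes in gaps did not fall. NV2.9509 had a mean log2 ratio of 0.34 and NV2.11817 one of 0.16, both at low levels of 15.1 and 12.9 normalised counts after knockdown and 11.3 and 10.8 in controls, and NV2.11822 had no reads in any library. NV2.24360 was lower by a mean log2 ratio of −1.93 and missed the limit of −2 with a highest pair ratio of −0.53. The numbers 6442 and 10342 carried no gene in the tables and were not analysed here.

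When fallers up to 3 numbers apart were joined, a choice made after seeing the data, 9 stretches held 5 or more fallers. Each stretch starts and ends with a faller and has only short gaps, so a high share of fallers is built in. Of all genes with a control mean of at least 50, 3.03% were fallers, whereas the counts below include genes at any level. The most fallers lay in NV2.17391 to NV2.17403, where 10 of 13 genes were fallers, among them all 5 genes of the longest run. In NV2.11814 to NV2.11825, 9 of 12 genes were fallers. NV2.5187 to NV2.5200 had 8 of 13, including the named genes *NVE3843* and *Ngal*, and NV2.12532 to NV2.12542 had 8 of 11. In NV2.10338 to NV2.10344 all 6 genes of the tables were fallers. The other 4 stretches, starting with NV2.6437, NV2.9507, NV2.11718 and NV2.14004, held 5 or 6 fallers among 7 to 9 genes.

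The limits of the rule decide which genes are members. With a control mean of at least 100, 33 of the 172 members were lost, and with a ratio of −3 or lower in each pair 49 were. Just inside the limit on the control mean were NV2.17397 (50.4 normalised counts) and NV2.24362 (51.7), and just outside were NV2.9736 (43.0) and NV2.17353 (42.7), which met the limit on the ratio. NV2.17397 had 1 read over the 5 knockdown libraries and 297 over the controls. With reads pooled and scaled by size factors, this is 0.372% of its level in controls (0.4705% from mean normalised counts). For the pooled reads, counting error alone allows 0.00938% to 2.09% (95%, exact). NV2.5137 and NV2.11802 were just inside the limit on the ratio, with highest pair ratios of −2.03 and −2.04, and NV2.6073 and NV2.19340 were just outside with −1.91 and −1.88. Beside a faller, 27 genes were left out by the control mean alone.

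Zeros were few. Of the 860 knockdown values of the members 51 were 0, spread over 30 members. NV2.1046, NV2.6438, NV2.10340, NV2.12535, NV2.14007 and NV2.17397 were at 0 in at least 3 knockdown libraries, and no member was at 0 in all 5. For these 6 genes the log2 ratio is set in part by the 0.5 added to each count, in at least 3 of the 5 pairs. The same holds for the pairs with a 0 in the rest of the 30 members, and so for their means and SDs. NV2.10338, for example, had a ratio of −10.9 in pair 3, where it was at 0, and −6.38 to −4.69 in the other pairs. The smallest fall within a member was most often that of pair 3 (72 members), and least often that of pair 5 (13 members) or pair 4 (16 members). Pair 3 is the pair whose knockdown library has the coarsest counts, and its control library was the lowest control in 89 members. Why the fall was smallest there was not tested.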

How the data were processed

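Poly(A) RNA of whole gastrulae was sequenced by the authors' provider as paired-end reads of 150 bp. The authors deposited estimated counts and TPM values per transcript from Salmon, whose version is not given in the sources used here, beside transcript lengths and effective lengths. Salmon divides reads among similar transcripts, which makes close copies uncertain. The authors' own comparison used DESeq2.

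For each of 24520 genes the estimated counts of its transcripts (35819 in all) were added up, with the gene number taken from characters 5 to 10 of the transcript name, and divided by median-of-ratios size factors over genes above 0 in all 10 libraries (Python 3.11.15). TPM was summed in the same way. Log2 ratios use a pseudocount of 0.5, and SDs are over 5 libraries or 5 pairs. For the background across all genes, counts were rounded to whole numbers and tested in R 4.3.3 by the quasi-likelihood F test of edgeR 4.0.16, with TMM factors, its default filter (minimum count of 10), robust estimation, condition as the only term and p-values adjusted by Benjamini-Hochberg over 19001 genes. The edgeR step and the rule were also run on simulated data. For the rule, the genes lowered there lay well above its control limit and fell far beyond its limit on the ratio. That run therefore does not cover genes near the limits. DESeq2 1.42.0 was an alternative, as were other normalizations, filters, limits and pseudocounts, the replicate block, TPM with a limit of 1 TPM in place of counts, and leaving out each library or pair.

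Members with few knockdown reads are imprecise at library totals of 18891111 to 49293261 reads, and intervals cover counting error only. The total is not the depth left for most genes. The knockdown library of replicate 3 had 35960095 reads but a size factor of 0.496. The labels do not say that replicates came from separate spawnings, so p-values measure the spread between these libraries. The replicate numbers pair the libraries, since libraries with one number share a batch in the labels and the study states that replicates were paired. Deviations from the group means correlated at 0.474, −0.0386, 0.191, 0.164 and 0.609 within pairs 1 to 5.

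The members and lists were chosen with earlier results of these data known. Named members are all members of runs of 3 or more, the runs of 2 with the highest level (5), the largest (5) and smallest (3) mean fall and the largest difference (3), and the members nearest the limits. Genes cited as gaps between runs, the members beside named cnidocyte genes in runs of 2, runs cited for their control pattern, and NV2.1046, NV2.8412, NV2.24893 and NV2.24894 were picked after their values were seen. Lists of other cell types were not run, as names are not paired with gene numbers here. Gene names were taken from the study's list of published cnidocyte genes.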

Additional observations from a re-analysis of the deposited data

Results flagged for a closer look

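Of the 186 groups of 5 libraries formed by the named members, 8 had 1 library set apart from the other 4 by Dixon's 95% limit, where chance alone would set apart about 1 in 20. Of these, 7 were knockdown groups, 2 each with replicates 1, 3 and 5 and 1 with replicate 2. NV2.5138 was at 820 normalised counts in the control library of replicate 2, against 614 to 643 in the others. NV2.9862 was at 51.8 in the knockdown library of replicate 5 (70.5 to 74.3 in the others), and NV2.11815 at 368 in that of replicate 2 (242 to 277). NV2.14007 was at 18.7 in the knockdown library of replicate 5, and NV2.17397 at 1.18, which is 1 read, in that of replicate 1. Both genes were at 0 in the other 4. NV2.17401 was at 8.06 in the knockdown library of replicate 3 (0 to 1.95), NV2.17402 at 32 in that of replicate 1 (18.1 to 21.9) and NV2.17807 at 70.5 in that of replicate 3 (106 to 120). The 8 genes are members with these values included. Whether each would stay a member without its set-apart library is not given gene by gene.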

How the results depend on the processing

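The number of members was 172, and 123 to 219 under the other limits, scalings and definitions of adjacency. Members in runs of 3 or more were 67, and 40 with a control mean of at least 100, 41 with a ratio of −3 or lower in each pair, 119 with numbers differing by 1 or 2, and 101 on TPM with a control mean of at least 1 TPM in place of 50 normalised counts, which changes the unit and the limit together. The median log2 ratio of −4.99 was −5.34 with the limit of −3 and −4.29 with a pseudocount of 5, which pulls ratios of low counts towards 0 by construction. Genes called higher over all genes were 229, and 21 with library size alone as the scale. Genes 1 or 2 numbers beyond a run and called lower were 29, 46 without a filter on low counts and 49 by DESeq2.

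Leaving out 1 library or pair gave 463 to 486 fallers, 170 to 179 members, 76 to 80 runs, 67 to 72 members in runs of 3 or more, 39.2% to 40.7% of fallers among neighbours, a median log2 ratio of −5.06 to −4.92 and a median difference within runs of 0.738 to 0.893. Called genes were 747 to 859 lower, 153 to 258 higher and 27 to 38 lower beyond a run. The 153 were reached without the control library of replicate 5. With the replicate block, edgeR called 865 lower and 328 higher genes and 40 lower beyond a run, and the ratio of group means without the pairing gave 209 members, all 172 among them. The block moved no count by over 1.5 times. For the 93 named members, all 1488 fold changes under the alternatives were negative, and 1471 moved by less than the SD over pairs. The cause of the other 17, in 13 members, was not tested. For members with few knockdown reads the fall can be given only with a wide interval.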
